A study of Homo sapiens with 6 samples.

Results

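The genes of the JNK and p38 stress kinase modules were examined in 143B cells, a human osteosarcoma line, with and without CNTNAP4. The set was fixed by gene symbol and holds 10 genes, which are 2 JNK kinases (MAPK8 and MAPK9), 4 p38 kinases (MAPK11, MAPK12, MAPK13 and MAPK14), 2 activators of JNK (MAP2K4 and MAP2K7) and 2 activators of p38 (MAP2K3 and MAP2K6). All 10 are among the 54308 genes of the deposited table, and all 10 had a value in each of the 6 libraries, so none was lost to the filter on missing values. The 3 vector control (VC) libraries came from 143B cells transfected with the vector plasmid, and the 3 CNTNAP4 KO libraries from 143B cells transfected with the CNTNAP4 KO plasmid, with 48 h of transfection given for both groups. The labels call this transfection transient, and per the methods the sequenced RNA of both groups came from clonal cells, so an effect of CNTNAP4 loss and one of clone choice cannot be told apart. Which KO clone gave which library is not given in the sources used here. The libraries of a group are called biological replicates by the submitters, and values below are given in the order of replicates 1, 2 and 3.

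Stress kinases work in a relay. Upstream kinases of the MAP3K family respond to cytokines, osmotic stress, ultraviolet light or translation arrest and phosphorylate a MAP2K, which in turn phosphorylates a threonine and a tyrosine in the activation loop of its MAPK. MKK4 (MAP2K4) and MKK7 (MAP2K7) do this for JNK, MKK3 (MAP2K3) and MKK6 (MAP2K6) for p38, and MKK4 can also act on p38. Active JNK phosphorylates c-Jun and other AP-1 proteins, and active p38 acts through kinases such as MK2 on the stability of inflammatory mRNAs. The libraries measured RNA, so the phosphorylation that switches these kinases on was outside the measurement.

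The values are log2 signals that the authors quantile-normalized between the 6 libraries. The linear unit is not given, so it is unknown whether the signals are per length. Levels are therefore compared here between libraries for 1 gene, and levels of different genes, as in the marker lists, are only a rough guide. The number of genes with a value was 20333 to 21041 per library, and the depth behind each value is unknown. For CNTNAP4, the deleted gene, the table lists only 1 value, -7.18 on the log2 scale in VC replicate 3, so it cannot check the deletion. Osteoblast-lineage and mesenchymal markers had values in all 6 libraries for 10 of 10 genes, with a summed linear signal of 1504 to 1677 in VC and 1795 to 2218 in KO. VIM gave most of this sum, with a mean log2 signal of 10.4 in VC and 10.8 in KO. COL1A2 and THY1 were low, with means of -4.81 and -4.97 in VC. COL1A2, THY1 and COL5A2 had lower means in KO, and the other genes of the list had higher means. Haematopoietic markers summed to at most 0.229 and endothelial markers to at most 0.163 in any library, while the epithelial list reached 553 to 640 through KRT8 and KRT18, with CDH1 listed in 1 library. Correlations across genes were 0.985 to 0.990 between KO libraries and 0.990 to 0.992 between VC libraries. The median absolute distance of a gene from its VC mean was 0.276, 0.485 and 0.388 log2 units in KO replicates 1, 2 and 3 and 0.054 to 0.0828 in VC. For 7 of the 10 kinase genes, KO replicate 1 was the KO library nearest to the VC mean, and for 8 of them KO replicate 2 was the farthest.

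Of the 10 genes, 2 were lower and 1 was higher in KO at an adjusted p under 0.05 (limma's moderated test, Benjamini-Hochberg adjustment over all 19306 genes tested). MAP2K6 and MAP2K4 fell and MAPK13 rose. Over all genes tested, 19.8% were lower and 13.1% higher, or 32.9% in either direction, so the shares of 20% and 10% among these kinases are near the background. The 3 KO values lay wholly on one side of the 3 VC values in 8 of the 10 genes, 4 below and 4 above, against 59.3% of all genes with 6 values (36.7% below and 22.6% above). The median log2 fold change of the 10 genes was 0.064, with 5 positive and 5 negative, and that of all genes tested was -0.13. Within both modules, log2 fold changes of either sign were found.

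**Figure D1:**
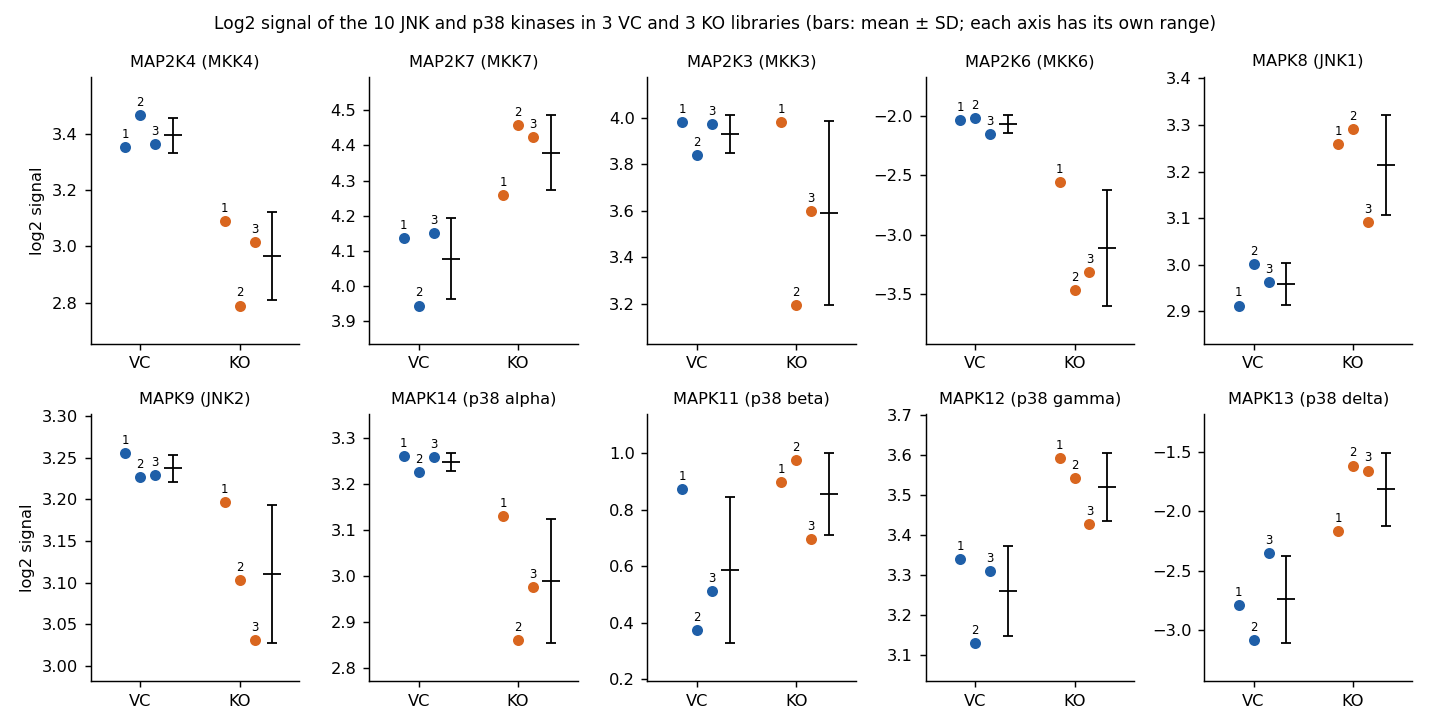
Log2 signal (vertical axes, each with its own range) of the 10 kinase genes in the 3 VC (blue) and 3 KO (orange) libraries, numbered by replicate, with the mean ± SD of each group in black. The groups overlap only for MAP2K3, where KO replicate 1 at 3.98 lies level with VC, and for MAPK11, where VC replicate 1 at 0.87 lies among the KO values.

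For the genes that passed the test, the DNA around an annotated start site is shown because transcription starts there and because these genes moved in different directions. The window of MAP2K3, which did not pass the test, is added because it alone among the kinases holds the AP-1 letters. These are the binding letters of the c-Jun family that JNK phosphorylates, and binding was not measured. The windows are RefSeq sequences on GRCh38.p14, 300 bases each around an annotated start, most of them before it, printed 5′ to 3′ on the gene's strand. Capitals mark matches on either strand to AP-1 (TGACTCA), CRE (TGACGTCA), the CHOP-ATF4 composite site (TGATGNAA), the GC box (GGGCGG), the CCAAT box (CCAAT) or the TATA box (TATAAA).
MAP2K4, chr17:12020627-12020926, plus strand: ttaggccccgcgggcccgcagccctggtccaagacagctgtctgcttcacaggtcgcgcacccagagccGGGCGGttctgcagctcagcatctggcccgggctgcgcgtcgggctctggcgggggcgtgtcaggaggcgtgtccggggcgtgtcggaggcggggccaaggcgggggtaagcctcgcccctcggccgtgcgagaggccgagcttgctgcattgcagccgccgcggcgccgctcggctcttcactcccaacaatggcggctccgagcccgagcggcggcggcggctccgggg
MAP2K6, chr17:69414447-69414746, plus strand: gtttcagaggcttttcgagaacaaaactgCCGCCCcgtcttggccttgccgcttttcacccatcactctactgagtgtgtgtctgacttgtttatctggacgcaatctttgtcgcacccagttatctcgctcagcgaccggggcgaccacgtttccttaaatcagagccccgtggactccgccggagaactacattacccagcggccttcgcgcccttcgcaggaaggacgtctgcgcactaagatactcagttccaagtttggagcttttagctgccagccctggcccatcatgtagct
MAPK13, chr6:36130263-36130562, plus strand: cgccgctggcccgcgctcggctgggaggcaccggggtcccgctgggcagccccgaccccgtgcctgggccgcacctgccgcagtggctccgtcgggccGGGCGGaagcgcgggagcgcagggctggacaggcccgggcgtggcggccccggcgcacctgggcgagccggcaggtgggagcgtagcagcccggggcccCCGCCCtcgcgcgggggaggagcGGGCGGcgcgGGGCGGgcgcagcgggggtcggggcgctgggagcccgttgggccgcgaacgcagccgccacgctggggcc
MAP2K3, chr17:21284461-21284760, plus strand: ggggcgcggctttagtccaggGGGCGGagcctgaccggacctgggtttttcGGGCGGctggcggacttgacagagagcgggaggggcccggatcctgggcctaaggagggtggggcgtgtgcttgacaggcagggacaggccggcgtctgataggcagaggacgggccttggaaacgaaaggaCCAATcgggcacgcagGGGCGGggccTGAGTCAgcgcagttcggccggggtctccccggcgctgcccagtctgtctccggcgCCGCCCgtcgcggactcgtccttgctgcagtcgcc
All 10 genes matched the table, with 14 windows because some have several starts. A GC box was found in 11 of the 14 windows, against 45.0% of 35116 windows of the same length. All 10 genes held a GC box at 1 or more starts. Its letters are all G or C, and the shares were not adjusted for base content. The windows printed for MAP2K4, MAP2K6, MAPK13 and MAP2K3 were 74.7%, 55%, 84% and 70.7% G or C, against a median of 58.7% over all windows. The CCAAT box was in 5 of the 14 (34.6% of all windows), the AP-1 letters in 1 (4.95% of all) and the TATA box in 1 (11.5% of all), a second start of MAP2K6. CRE and CHOP-ATF4 letters were in 0 of the 14, against 1.85% and 3.62% of all windows. MAP2K4 and MAP2K6, which fell, and MAPK13, which rose, each hold GC boxes only in the windows printed, 1, 1 and 4 of them. None of the motifs contains the letters of another.

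The activators of JNK were examined first. MAP2K4 encodes MKK4, which phosphorylates JNK mainly on the tyrosine, and lies at chr17:12020824-12143830 on the plus strand (GENCODE 29, GRCh38). Its log2 signals were 3.35, 3.47 and 3.36 in VC against 3.09, 2.79 and 3.02 in KO. Every KO library was below every VC library, and KO replicate 2 was the lowest. The log2 fold change was -0.43 (standard error 0.10, 95% interval -0.69 to -0.17, adjusted p = 0.0321), which puts KO at 0.743 of the VC level. The pseudogene MAP2K4P1 is a near copy whose reads the authors' counting may share with MAP2K4. Its mean log2 signal was -2.82 in VC and -3.32 in KO, against 3.39 and 2.97 for MAP2K4, a difference between groups of -0.50 (adjusted p = 0.156). How many reads the 2 genes share, and so how far the value of MAP2K4 is affected, is unknown. The call of MAP2K4 was kept without KO replicate 1 (adjusted p = 0.0199) and without KO replicate 2 (0.0432) and was lost without VC replicate 1, 2 or 3 (0.0874, 0.088 and 0.0908) and without KO replicate 3 (0.0782).

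MAP2K7 encodes MKK7, which is specific to JNK, phosphorylates its threonine and responds mainly to cytokines (chr19:7903843-7914478, plus strand). Its log2 signals were 4.14, 3.95 and 4.15 in VC against 4.26, 4.46 and 4.42 in KO. The KO values lay above the VC values, with a gap between KO replicate 1 and VC replicate 3 that is smaller than the spread within either group. The log2 fold change was 0.30 (standard error 0.098, 95% interval 0.054 to 0.55), and the adjusted p of 0.0653 missed the threshold. It passed when only the upper 50% of genes by mean signal were tested (adjusted p = 0.0211), with median-centred libraries (0.0445) and without KO replicate 1 (0.0351), and missed without each of the other 5 libraries (0.121 to 0.163). The difference MAP2K4 minus MAP2K7, taken within each library, was -0.68 ± 0.18 in VC against -1.41 ± 0.25 in KO (SD, n = 3 each) on the log2 scale. The KO and VC libraries did not overlap in this difference, which moved by -0.73, so that MKK4 RNA lost 1.66-fold against MKK7 RNA (exact permutation test, two-sided p = 0.1, 0.14 adjusted over 7 pairs of genes). With 3 libraries against 3, 0.1 is the smallest p this test can give.

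The JNK kinases themselves differed less. MAPK8 encodes JNK1, a ubiquitous JNK, and lies at chr10:48306639-48439360 on the plus strand. Its log2 signals were 2.91, 3.00 and 2.96 in VC against 3.26, 3.29 and 3.09 in KO. All KO values were above all VC values (log2 fold change 0.26, standard error 0.083, 95% interval 0.046 to 0.46), with an adjusted p of 0.0651. Its adjusted p was 0.0216 when only the upper 50% of genes by mean signal were tested and 0.0386 with median-centred libraries, and it missed the threshold in all 6 fits without 1 library (0.0726 to 0.181).

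MAPK9 encodes JNK2, the other broadly expressed JNK (chr5:180233143-180292099, minus strand). It had log2 signals of 3.26, 3.23 and 3.23 in VC against 3.20, 3.10 and 3.03 in KO. The KO values were below the VC values by little, a log2 fold change of -0.13 (standard error 0.073, 95% interval -0.31 to 0.057, adjusted p = 0.226), which equals the median of all genes tested at 2 decimals. MAPK8 minus MAPK9 was -0.28 ± 0.061 in VC against 0.10 ± 0.073 in KO (SD, n = 3 each), with no overlap. The change of 0.38 is a 1.30-fold gain of JNK1 RNA over JNK2 RNA (exact permutation test, two-sided p = 0.1, adjusted 0.14), and it lay between 0.34 and 0.41 with any 1 library left out. MAPK10, the JNK3 gene known from brain and heart, had low signals, between -6.66 and -5.27 in VC and between -5.88 and -5.28 in KO, with overlapping groups.

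**Figure D2:**
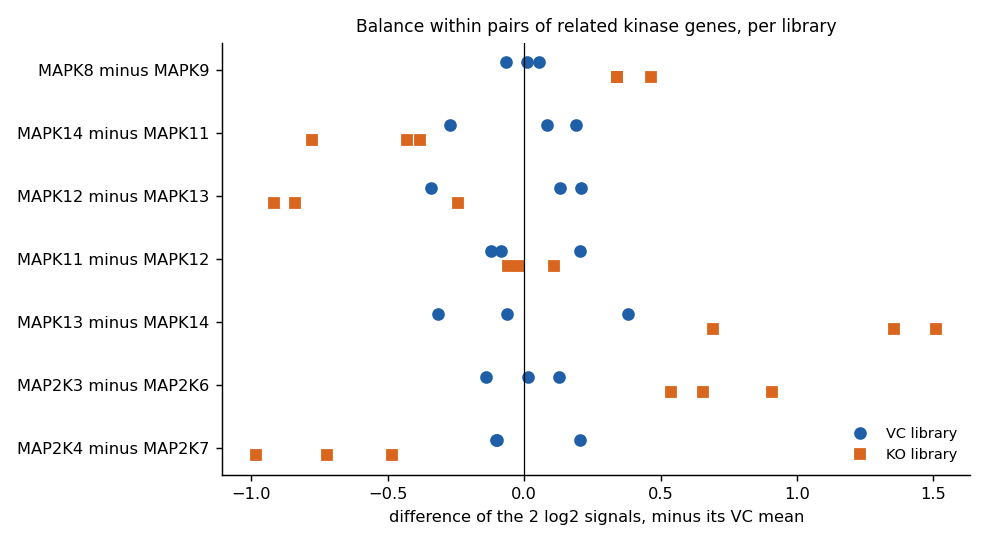
Difference of the log2 signals of paired kinase genes in each VC (blue circles) and KO (orange squares) library, shown minus the VC mean of that pair on the horizontal axis. KO and VC libraries do not overlap in 5 of the 7 pairs, with the shift reaching 1.19 for MAPK13 minus MAPK14, and overlap for MAPK12 minus MAPK13 and MAPK11 minus MAPK12. The share without overlap was not computed for other gene pairs, and was 59.3% for single genes with 6 values.

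Among the activators of p38, MAP2K6 had the largest change of the 10 genes. It encodes MKK6, which phosphorylates all p38 forms, and lies at chr17:69414698-69553861 on the plus strand. Its log2 signals were -2.03, -2.02 and -2.15 in VC against -2.55, -3.46 and -3.31 in KO. Every KO library was below every VC library, KO replicates 2 and 3 by more than 1 log2 unit and KO replicate 1 by less. MAP2K6 fell by 1.04 on the log2 scale (standard error 0.25, 95% interval -1.68 to -0.41, adjusted p = 0.0328), to 0.486 of the VC level. The signal is low, under 1 on the linear scale, and adding 1 on the linear scale shrank the log2 fold change to -0.15 (adjusted p = 0.0238). The call was kept without KO replicate 1 (adjusted p = 0.00441) and lost without each of the other 5 libraries (0.0709 to 0.0926).

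MAP2K3 encodes MKK3, the partner of MKK6 in p38 activation (chr17:21284672-21315240, plus strand). Its log2 signals were 3.98, 3.84 and 3.97 in VC against 3.98, 3.19 and 3.60 in KO. KO replicate 1 lay level with VC, and KO replicates 2 and 3 lay below it. The log2 fold change of -0.34 (standard error 0.21, 95% interval -0.87 to 0.19, adjusted p = 0.252) was within the spread of the KO libraries. It was -0.14 without KO replicate 2, and -0.53 without KO replicate 1, where it passed the test (adjusted p = 0.043). The difference MAP2K3 minus MAP2K6 was 5.996 ± 0.13 in VC against 6.70 ± 0.19 in KO (SD, n = 3 each), a change of 0.70 with no overlap (exact permutation test, two-sided p = 0.1, adjusted 0.14). It was 0.60 to 0.78 with single libraries left out. With 1 added to the linear signal, which compresses the low signal of MAP2K6, the change was -0.17 instead.

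The 4 p38 kinases fell into different patterns. MAPK13 encodes p38 delta, a form with a narrow tissue range, and lies at chr6:36127809-36144524 on the plus strand. Its log2 signals were -2.79, -3.08 and -2.35 in VC against -2.17, -1.62 and -1.66 in KO. All KO libraries were above all VC libraries, with KO replicate 1 close to VC replicate 3. MAPK13 was 1.90-fold higher in KO (log2 fold change 0.93, standard error 0.25, 95% interval 0.31 to 1.55, adjusted p = 0.0399). Its signal is low, as for MAP2K6, and adding 1 on the linear scale left a log2 fold change of 0.16 (adjusted p = 0.0389). The call was kept without KO replicate 1 (adjusted p = 0.0233) and lost without each of the other 5 libraries (0.0563 to 0.11).

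MAPK14 encodes p38 alpha, the main form in most tissues and the target of most p38 inhibitors. It neighbours MAPK13 in the genome, at chr6:36027677-36111236 on the plus strand. The log2 signals were 3.26, 3.23 and 3.26 in VC against 3.13, 2.86 and 2.98 in KO. All KO values were below the VC values, and the VC values lay close together. The log2 fold change was -0.26 (standard error 0.09, 95% interval -0.49 to -0.033), and the adjusted p of 0.0762 missed the threshold. It was 0.0268 when only the upper 50% of genes by mean signal were tested and 0.0208 without KO replicate 1, but 0.125 with median-centred libraries (log2 fold change -0.18) and 0.138 to 0.184 without each of the other 5 libraries. MAPK13 minus MAPK14 was -5.99 ± 0.35 in VC against -4.80 ± 0.43 in KO (SD, n = 3 each). The shift of 1.19, or 2.28-fold, between these neighbouring genes was the largest of the 7 pairs (exact permutation test, two-sided p = 0.1, adjusted 0.14), and was 0.39 with 1 added to the linear signal.

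MAPK11 and MAPK12 encode p38 beta and p38 gamma, the first related in sequence and drug response to p38 alpha and the second best known from muscle. They are neighbours on the minus strand of chromosome 22, at chr22:50263713-50270767 and chr22:50245450-50261825. MAPK12 had log2 signals of 3.34, 3.13 and 3.31 in VC against 3.59, 3.54 and 3.43 in KO. Its KO values were above its VC values, with a log2 fold change of 0.26 (standard error 0.092, 95% interval 0.028 to 0.49, adjusted p = 0.08). The adjusted p of MAPK12 was 0.0287 when only the upper 50% of genes by mean signal were tested and 0.0274 with median-centred libraries, and 0.11 to 0.171 in the 6 fits without 1 library. HDAC10 overlaps MAPK12 on the same strand, so reads of the overlap may count for either, and the difference of HDAC10 was 0.028 (adjusted p = 0.908).

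MAPK11 had log2 signals of 0.87, 0.37 and 0.51 in VC against 0.90, 0.98 and 0.69 in KO. Its groups overlapped through VC replicate 1, and the log2 fold change of 0.27 (standard error 0.16, 95% interval -0.13 to 0.67, adjusted p = 0.235) was within the replicate spread. MAPK11 minus MAPK12 was -2.67 ± 0.18 in VC against -2.66 ± 0.087 in KO (SD, n = 3 each), a change of 0.0096 with a standard error of 0.11 (exact permutation test, two-sided p = 0.9). In contrast, MAPK14 minus MAPK11 moved from 2.66 ± 0.24 to 2.13 ± 0.22 (SD, n = 3), a shift of -0.53 with no overlap (exact permutation test, two-sided p = 0.1, adjusted 0.14). MAPK12 minus MAPK13 moved by -0.67, with 1 pair of VC and KO libraries overlapping (exact permutation test, two-sided p = 0.2, adjusted 0.233).

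**Figure D3:**
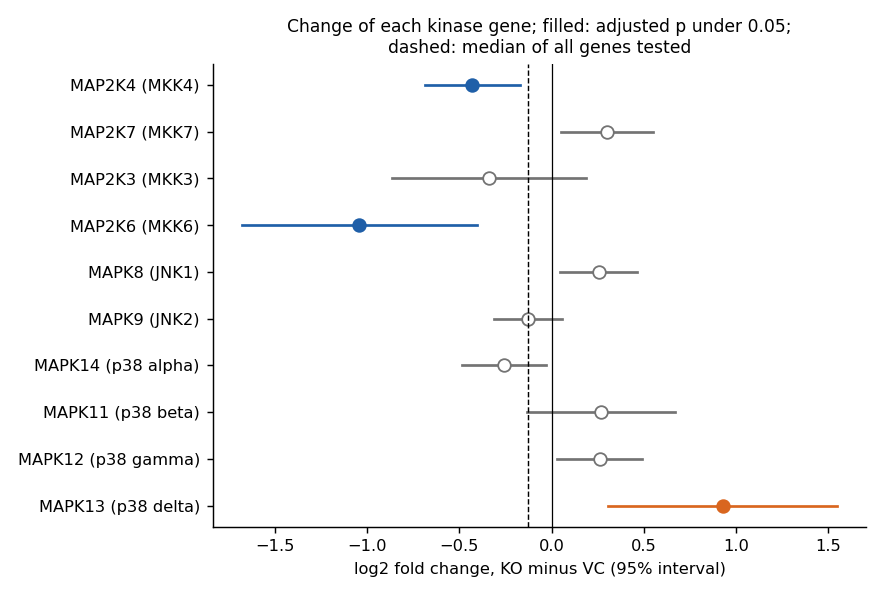
Log2 fold change of each kinase gene, KO minus VC, with its 95% interval from limma on the horizontal axis, for the JNK activators, p38 activators, JNKs and p38 kinases from top to bottom. Filled points (MAP2K4 and MAP2K6 lower, MAPK13 higher) have an adjusted p under 0.05, and the dashed line is the median of all genes tested, -0.13.

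The genomic surroundings of the kinase genes were described next. Among the 10 nearest tested genes of MAP2K4, 8 were lower (19.8% of all genes tested were) and 1 was higher in KO, with a median log2 fold change of -0.59, close to the -0.43 of MAP2K4 itself. These included ELAC2 (-0.47), ARHGAP44 (-0.50) and SCO1 (-0.62) at moderate size. For MAP2K6, on the other arm of the same chromosome, 0 of the 10 neighbours were lower and 4 were higher, with a median of 0.45 against its own -1.04. MAP2K3 (-0.34) was near the median of its neighbours (-0.29, 4 lower and 1 higher). MAP2K7 (0.30 against -0.41), MAPK8 (0.26 against -0.28) and MAPK13 (0.93 against -0.17) had the opposite sign to the medians of theirs. The other genes of chromosome 17 in the upper 50% of mean signal had a median of -0.10 over 578 genes. Genes of chromosome 22 had a median of 0.31 over 238 genes, against -0.097 on other chromosomes. MAPK11 and MAPK12, at 0.27 and 0.26, lay near that value and near the medians of their 10 neighbours, 0.24 each, in which each of them counts as a neighbour of the other. The medians of the chromosomes of MAPK8, MAPK9, MAPK13, MAPK14 and MAP2K7 lay between -0.061 and -0.0086, and none of the 10 neighbours of MAPK13 passed the test. The part of the surroundings in these changes was not tested.

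**Figure D4:**
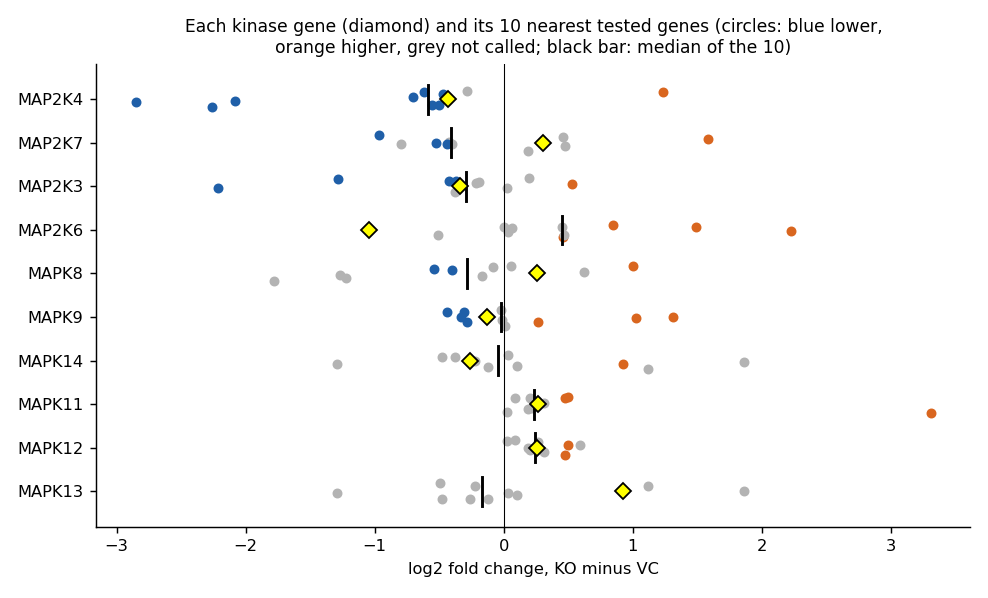
Log2 fold change, KO minus VC (horizontal axis), of each kinase gene (yellow diamond) and of its 10 nearest tested genes in RefSeq order (circles, blue lower, orange higher, grey not called), with the median of the 10 as a black bar. MAP2K4 lies with its neighbours (median -0.59), and MAP2K3 (-0.29), MAPK11 and MAPK12 (0.24 each) lie near the medians of theirs. MAP2K6 (0.45), MAP2K7 (-0.41), MAPK8 (-0.28) and MAPK13 (-0.17) lie on the other side of 0 from the medians of their neighbours.

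The genes with the pattern most like each changed kinase over the 6 libraries were found by the root mean square difference of centred log2 signals among 9653 genes in the upper 50% of mean signal. For MAP2K4 these were UPF2 (0.016 log2 units), HAUS2 (0.019) and THAP12 (0.019). FAM72D (0.072), DLX6 (0.077) and CDCA3 (0.082) were nearest to MAP2K6, and CITED1 (0.1), RGS14 (0.126) and NOTCH2NLR (0.132) to MAPK13.

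The rest of the stress kinase pathway was described by 6 lists with 110 genes, of which 109 were tested. In KO, 23 were lower (21.1%, against 19.8% of all genes) and 24 were higher (22%, against 13.1% of all genes), and 62 did not pass the test. The median log2 fold change of the 109 genes was -0.014. The numbers called depended on single libraries and were 3 and 3 without VC replicate 3, 3 and 6 without VC replicate 1, 6 and 10 without VC replicate 2, 3 and 10 without KO replicate 3 and 15 and 18 without KO replicate 2. Over all genes tested, the numbers fell in the same fits, from 3828 lower and 2526 higher with all libraries. They were 569 and 654, 646 and 757, 1396 and 1054, 1030 and 988, and 2659 and 1734 in the same order of fits. Of 25 upstream kinases, 5 were lower, 4 were higher and 16 did not pass, with a median of -0.11. The shares of 20% lower and 16% higher are near those of all genes, 19.8% and 13.1%. The mixed-lineage kinase MAP3K9 fell most, from 0.80, 0.81 and 0.91 in VC to -0.49, -0.34 and -0.13 in KO, which is a log2 difference of -1.16 (standard error 0.11, adjusted p = 0.00789). MAP3K21, of the same family, and MAP3K6, a relative of the oxidative stress sensor ASK1, had log2 fold changes of -0.93 and -0.84. These 3 kinases passed the test without any single library (highest adjusted p 0.0473). MAP4K4 (0.60), MAP4K3 (0.49) and MAP3K20, the ZAK kinase that senses stalled ribosomes (0.46), were higher, and each passed without 4 of the 6 libraries taken singly and missed narrowly without the others (highest adjusted p 0.0576).

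Of 21 adaptors, activators and scaffolds, 5 were lower, 6 were higher and 10 did not pass (23.8% lower and 28.6% higher, against 19.8% and 13.1% of all genes). GADD45A, a stress-induced activator of MAP3K4, had log2 signals of 5.12, 5.10 and 4.98 in VC against 6.02, 6.51 and 6.02 in KO, and rose by 1.12 on the log2 scale (standard error 0.16, adjusted p = 0.0117). GADD45G, of the same family, rose by 1.81 from a low signal (adjusted p = 0.0312, called in 1 of the 6 fits without a library), and the JNK scaffold SH3RF1 by 0.87 (adjusted p = 0.0122). The scaffold SH3RF3 (-0.40), TRAF2 of the TNF receptor complex (-0.66) and CCM2, a scaffold of MKK3 (-0.44), were lower. Each of the 3 lower genes passed in at most 2 of the 6 fits without a library.

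Effectors of JNK included 4 lower, 6 higher and 8 uncalled of 18 genes (22.2% lower and 33.3% higher, against 19.8% and 13.1% of all genes). ATF3, a stress-induced AP-1 partner, had log2 signals of -0.33, -0.36 and -0.67 in VC against 1.78, 2.19 and 1.13 in KO, which is a log2 difference of 2.16 (standard error 0.29, adjusted p = 0.0107). JUNB rose by 1.40 (adjusted p = 0.00891), and both genes passed without any single library. JUN, the substrate that gave JNK its name, was at 6.22, 6.03 and 6.22 in VC against 6.86, 6.97 and 6.76 in KO and rose by 0.71 on the log2 scale (adjusted p = 0.0107). JUN stands outside the rule for named genes and was added after its values were seen. The BH3-only gene BMF was also higher (0.87, adjusted p = 0.0157), while BCL2L11, which encodes the BH3-only protein BIM, was lower (-0.78, adjusted p = 0.0312). The insulin receptor substrate IRS1 had the largest decrease of the list (-1.44, adjusted p = 0.0188), followed after BCL2L11 by the microtubule regulator STMN1 (-0.59, adjusted p = 0.0232). BMF, BCL2L11, IRS1 and STMN1 each passed in 2 of the 6 fits without a library.

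Effectors of p38 had 5 lower, 2 higher and 11 uncalled of 18 genes (27.8% lower and 11.1% higher, against 19.8% and 13.1% of all genes). The kinase MAPKAPK5 (log2 fold change -0.44), the mRNA stabilizer ELAVL1 (-0.44) and the CREB relative ATF1 (-0.39) were lower, and the mRNA decay factor ZFP36L1 (0.76) and the transcription factor MEF2D (0.44) were higher, with adjusted p of 0.0187 to 0.0482. ELAVL1 and ATF1 each passed in 1 of the 6 fits without a library, and their adjusted p was 0.0534 and 0.0594 with median-centred libraries. Of 17 genes listed as JNK and p38 phosphatases, 4 were lower, 4 were higher and 9 did not pass (23.5% in each direction). Whether each of them acts directly on JNK or p38 was not checked. DUSP1, the inducible phosphatase of p38 and JNK, was at 3.79, 3.59 and 3.76 in VC against 5.04, 5.34 and 4.63 in KO, which is a log2 difference of 1.29 (standard error 0.20, adjusted p = 0.0132). DUSP10, also selective for p38 and JNK, was higher by 0.82 (adjusted p = 0.0478) and PPM1J by 0.88 (adjusted p = 0.0189). DUSP8 (-0.87, adjusted p = 0.0227), PPM1L (-1.14, adjusted p = 0.0206) and PPM1A (-0.40, adjusted p = 0.0154) were lower. DUSP1 passed in 5 of the 6 fits without a library (0.0517 without VC replicate 3), DUSP8 and PPM1J in 3, PPM1L and PPM1A in 2 and DUSP10 in 1 (up to 0.128). The call of DUSP10 was also lost without variance moderation (adjusted p = 0.0885) and with a looser filter on missing values (0.0521). Within each of the effector and phosphatase lists, genes thus passed the test in both directions.

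**Figure D5:**
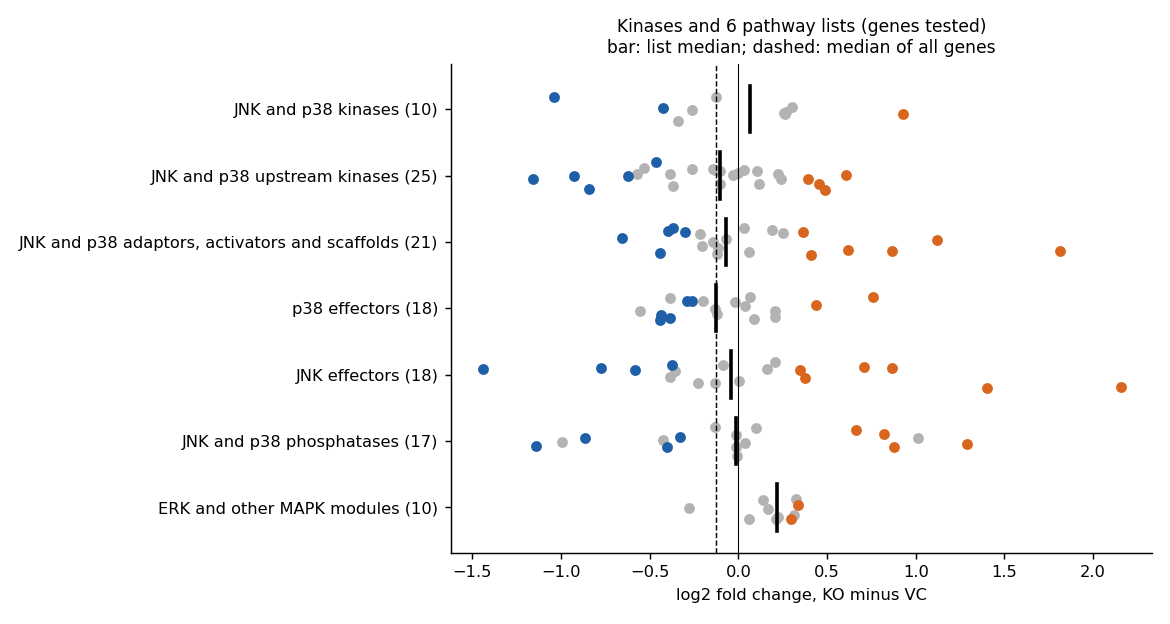
Log2 fold change, KO minus VC (horizontal axis), of the 10 kinase genes and of the tested genes of 6 pathway lists, 1 point per gene (blue lower, orange higher, grey not called), with the list median as a black bar and the median of all genes tested as a dashed line. The medians of the stress pathway lists lie between -0.13 and -0.012, and that of the ERK and other MAPK modules at 0.22.

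The last list holds the ERK and other MAPK modules. Of 10 tested genes, 0 were lower and 2 were higher (20%), against 19.8% lower and 13.1% higher of all genes. The 2 were MAPK6 (log2 fold change 0.34, adjusted p = 0.0257) and MAP2K5 (0.29, adjusted p = 0.0449) by limma's test. At an unadjusted p under 0.05 the number lower was 1, NLK, and MAP2K1 was among the genes higher. The ERK kinase MAPK3 (0.31, adjusted p = 0.153) and its activators MAP2K1 (0.22, adjusted p = 0.0575) and MAP2K2 (0.14, adjusted p = 0.31) had positive log2 fold changes that did not pass. Of 10 alternative fits with all 6 libraries, MAP2K1 passed in 7, MAPK3 in 1 and MAP2K2 in 0. Of the 6 fits without a library, MAP2K1 and MAPK3 each passed in 1 and MAP2K2 in 0. MAPK6 passed in 2 and MAP2K5 in 1 of the 6 fits without a library (up to 0.0924 and 0.114). The list also holds MAPK10, the JNK3 gene (0.16, adjusted p = 0.783), so it is not free of JNK genes, and whether its genes differ from the JNK and p38 kinases in their change was not tested.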

How the data were processed

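RNA of 3 VC and 3 CNTNAP4 KO libraries was sequenced by the authors, and groups were taken from the sample titles. The processing notes name CASAVA, STAR, Partek and GRCh38.p13 without roles, and the methods name CLC and Partek software. The deposited log2 signals had been quantile-normalized by the authors and were used as they are. Genes listed with 2 or more values per group were tested in R 4.3.3 with limma 3.58.1 (empirical Bayes moderation without trend, two-sided, Benjamini-Hochberg over 19306 genes, threshold 0.05), after the code was tested on simulated data. Within-library differences of paired genes were compared by exact permutation tests. Read depth is unknown, so no counting error could be given, and p-values measure the spread between these libraries. Named genes are the 10 kinases, CNTNAP4, genes of the ERK module and MAPK10 (1 gene that the rule names is not reported here), up to 3 called genes in each direction per list with the largest change among those with 6 values and groups apart, and the 3 genes nearest in pattern to each of the 3 kinases with the smallest adjusted p. The kinases, lists and pairs were chosen with earlier results of these data known. Positions are from GENCODE 29, gene order and promoter windows from RefSeq on GRCh38.p14, whose symbols matched 17667 of the tested genes. Alternatives changed the genes tested, scaling, pseudocount, variance model, library weights, replicate block, libraries and threshold.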

Additional observations from a re-analysis of the deposited data

How the results depend on the processing

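The number of kinase genes called lower in KO was 2 and that called higher was 1. These counts were 0 and 0 without variance moderation, 5 and 4 with library weights, and 1 and 0 when at least a 2-fold change was also required. With single libraries left out they ranged from 0 to 4 lower and from 0 to 2 higher, with the largest numbers without KO replicate 1. The count of 0 lower and 0 higher was found without VC replicate 1, 2 or 3 or KO replicate 3, and 1 lower and 0 higher without KO replicate 2. The number higher was 3 when only the upper 50% of genes by mean signal were tested, which leaves out MAPK11, MAPK13 and MAP2K6, and 4 with median-centred libraries, with 1 added to the linear signal, with trend and robust moderation, and at an unadjusted p under 0.05. Calls over all genes tested moved as well, from 3828 lower and 2526 higher to 2442 and 1990 without variance moderation. They were 9084 and 4852 with library weights, 939 and 594 with a replicate block, and 5729 and 2940 without KO replicate 1. With other single libraries left out they ranged from 569 to 2659 lower and from 654 to 1734 higher. For the other pathway genes, 23 were called lower and 24 higher. The count lower was 15 without variance moderation, the counts were 49 and 38 with library weights and 3 and 5 with at least a 2-fold change, and with single libraries left out they ranged from 3 to 31 and from 3 to 25. With a replicate block the counts were 0 and 0 for the kinases and 3 and 5 for the other pathway genes. The deviations of same-numbered VC and KO libraries had correlations across genes of 0.0226, 0.00509 and -0.00736, against -0.0304 to 0.0314 for different numbers. Pairing by replicate number was thus not visible, but with 3 libraries per group this check cannot settle whether the samples were prepared in pairs. The change in balance of MAP2K3 minus MAP2K6 reversed from 0.70 to -0.17 with 1 added to the linear signal, that of MAPK12 minus MAPK13 from -0.67 to 0.077 and that of MAPK11 minus MAPK12 from 0.0096 to -0.072, and the last ranged from -0.051 to 0.11 with single libraries left out. No other pair reversed under the alternatives run. MAPK10 had a log2 fold change of 0.16, which was -0.40 with library weights and ranged from -0.28 (without VC replicate 2) to 0.42 with single libraries left out. Adding 1 to the linear signal moved the median of all genes tested from -0.13 to -0.023. The causes of these differences were not tested. Log2 signals without counts leave the precision of low values, such as those of MAP2K6 and MAPK13, unknown.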
